A study of Homo sapiens with 4 samples.

Results

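The circadian clock genes *PER1*, *PER2*, *PER3*, *CRY1*, *CRY2*, *ARNTL*, *CLOCK*, *NR1D1*, *NR1D2* and *DBP* were followed in progestin-treated T47D cells, a breast cancer line in culture with abundant progesterone receptor (PR). They were chosen by name, as core parts of the clock, with earlier results of these data known. All 10 were found among the 23287 gene symbols of the RNA-seq files. The study compared mRNA of cells treated with 10 nM of the synthetic progestin R5020 for 3 h with mRNA of cells treated with the vehicle, ethanol (EtOH), and mapped PR by ChIP-seq after 1 h of 10 nM R5020. The T47D cells, all of this 1 line, were kept in charcoal-stripped serum before treatment, for longer before ChIP-seq than before RNA-seq. There was 1 library for R5020 mRNA, 1 for EtOH mRNA and 1 for PR ChIP-seq. Differences between R5020 and EtOH are therefore differences between single libraries, without a test. In such bulk libraries fewer cells of a type and less RNA per cell cannot be told apart.

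The clock is a transcriptional loop. ARNTL (BMAL1) and CLOCK form a dimer that binds E-box sequences and turns on the *PER* and *CRY* genes, whose proteins then enter the nucleus and inhibit the dimer. A second loop runs through the REV-ERB receptors, encoded by *NR1D1* and *NR1D2*, which repress *ARNTL*, while DBP carries the rhythm to output genes through D-box sequences. Glucocorticoids, whose receptor recognises the same DNA element as the PR, are known to induce *PER* genes in many cell types.

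Of the clock genes, *PER2* and *CRY2* were higher in R5020-treated cells by more than 1.5-fold, and *PER1* was higher by less than that on the scale used. *PER3*, *CLOCK* and *ARNTL* lay close to equal in the 2 libraries. *DBP* was nearly absent from the R5020 library, but was already the lowest of these genes in EtOH. PR binding sites overlapped *PER1*, *PER2*, *CRY1* and *CRY2* and none of the other 6 genes, and the site in *PER2* was among the highest scored of the whole ChIP-seq library. Of all genes, 18.1% had an overlapping site, a share not matched for gene length.

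Expression is given as FPKM, fragments scaled to transcript length and library size, summed over the transcripts of a gene. A change is the difference of log2(FPKM + 1), R5020 less EtOH, so that ratios between low values are shrunk. Genes that reached an FPKM of 1 in either library were retained, which left 11018 genes and 8 of the 10 clock genes. *PER1* passed only through its R5020 value, and *NR1D1* and *DBP* were under 1 in both libraries. Coverage times length corresponded to about 35151500 reads of 50 nt in EtOH and 36203600 in R5020. These estimates cover reads assigned to the listed transcripts, and are not the totals of aligned reads, which the methods of the study put higher and with EtOH as the deeper library. The progestin targets *FKBP5*, *TSC22D3*, *ZBTB16* and *SGK1* were all higher in R5020, with log2 fold changes of 1.40 to 2.38. Of 7 luminal breast markers, 5 in EtOH and 7 in R5020 were above an FPKM of 1. The other 2, *KRT8* and *KRT18*, were listed at 0 in EtOH, where Cufflinks gave them the status FAIL, which no transcript of the clock genes had. Of 7 markers of basal cells, fibroblasts, leukocytes and endothelium, 6 were under 1 in both libraries and *COL1A1* was at 5.12 in EtOH and 3.31 in R5020. *PGR*, which encodes the PR, was itself at 23.7 in EtOH and 15.3 in R5020.

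Among the repressors of the loop, *PER2* showed the largest change of the 10 genes on the log2(FPKM + 1) scale, while without the pseudocount that of *DBP*, at a very low level, was larger. Its single transcript (chr2:239152679-239197207, minus strand, hg19) rose from 2.15 FPKM in EtOH-treated cells to 6.73 in R5020-treated cells. The log2 fold change was 1.29, or 3.12-fold without the pseudocount. Only 2.08% of the retained genes had a higher log2 fold change. Cufflinks, the program that made the values, gives each an interval for the error of the estimate within a library, and for *PER2* this was 1.97 to 2.34 in EtOH and 6.17 to 6.97 in R5020. The intervals did not overlap, but they do not cover the spread between cultures. The *PER2* values correspond to about 1085 reads in EtOH and 3686 in R5020. By FPKM the gene moved from rank 8780 to rank 4563 of all gene symbols. The retained genes with the most similar pair of levels were *C16orf55* (2.10 and 6.60), *EGFR* (2.25 and 6.69) and *KLHL8* (2.28 and 6.87), by distance between log2(FPKM + 1) values of the 2 libraries.

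*PER1* (chr17:8043788-8055753, minus strand), a paralogue of *PER2* known as an immediate early gene in many tissues, was at a low level in both libraries. Its FPKM was 0.856 under EtOH and 1.57 under R5020, 1.83-fold higher without the pseudocount but only 0.47 on the log2(FPKM + 1) scale, under the 1.5-fold threshold of 0.585. Its Cufflinks intervals were 0.406 to 0.657 in EtOH and 0.798 to 1.17 in R5020. They did not overlap, yet both FPKM values lay above their own interval. *PER3* (chr1:7844763-7905237, plus strand) was at 5.56 FPKM under EtOH and 5.78 under R5020, with a log2 fold change of 0.05. Its intervals overlapped, and both values lay above them. It was the highest of the *PER* genes in EtOH, and in R5020 *PER2* stood above it.

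Of the cryptochromes, which bind and inhibit CLOCK and ARNTL, *CRY1* (chr12:107385143-107487598, minus strand) was the most abundant of the 10 clock genes in both libraries. Its FPKM was 10.5 under EtOH (interval 10.04 to 11.04) and 14.0 under R5020 (13.4 to 14.7). The intervals were apart, and the log2 fold change of 0.38 was below the threshold. *CRY2* (chr11:45868669-45904799, plus strand) rose from 2.99 (interval 2.71 to 3.28) to 6.03 (5.58 to 6.48), a log2 fold change of 0.82, and 4.78% of the retained genes had a higher one. All of this came from 1 of its transcripts, NM_021117, since the other was listed at 0 in both libraries. *CRY1* thus stood well above *CRY2* in both libraries, by a smaller ratio in R5020 than in EtOH.

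The activators of the loop did not pass the threshold. *CLOCK* (chr4:56298660-56412997, minus strand) was at 2.49 FPKM under EtOH and 2.51 under R5020, with a log2 fold change of 0.01. Both values lay below their Cufflinks intervals, which were 3.19 to 3.77 in EtOH and 3.18 to 3.78 in R5020. The intervals overlapped almost entirely. *ARNTL* (chr11:13299325-13408812, plus strand) was at 1.48 under EtOH and 1.35 under R5020, with a log2 fold change of −0.08.

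The REV-ERB genes stood apart in level. *NR1D2* (chr3:23986751-24022109, plus strand) was at 7.89 FPKM under EtOH and 10.5 under R5020, with a log2 fold change of 0.37, and ranked next to *CRY1* in both libraries. *NR1D1* (chr17:38249037-38256973, minus strand) was at 0.967 in EtOH (interval 0.713 to 1.22) and 0.646 in R5020 (0.436 to 0.856), so its intervals overlapped, and its log2 fold change was −0.26. The 3' part of *NR1D1* overlaps transcripts of *THRA* by 1084 bp, and whether reads were counted by strand is not given in the sources used here, so reads of the overlap cannot be assigned with certainty. The *THRA* transcript above 0 that reaches into the overlap, NM_003250, was at 1.15 FPKM under EtOH and 1.22 under R5020. *DBP* (chr19:49133817-49140639, minus strand), the D-box activator, was the lowest of the 10 genes in both libraries. It was at 0.523 under EtOH and 0.0387 under R5020, corresponding to about 71 and 6 reads. The ratio was 13.5-fold lower without a pseudocount and −0.55 on the log2(FPKM + 1) scale. The EtOH value lay above its own interval of 0.0991 to 0.359, and the R5020 interval, 0 to 0.0771, lay below it. The midpoints of the intervals, 0.229 and 0.0385, stand closer together and give −0.24 on the log2(FPKM + 1) scale.

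**Figure D1:**
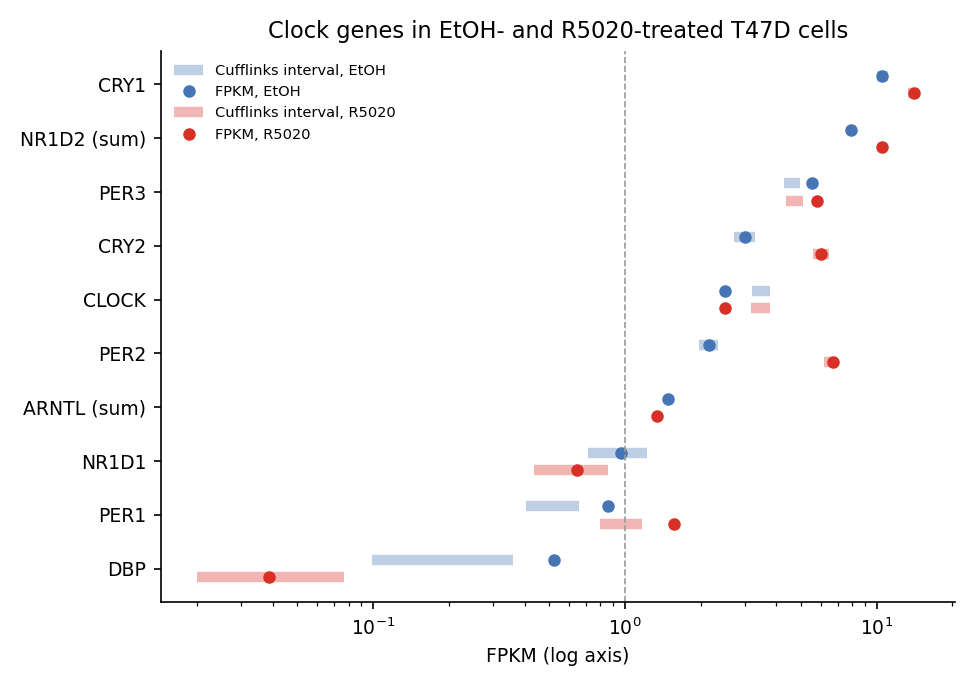
FPKM (log axis) of the 10 clock genes in the EtOH (blue) and R5020 (red) libraries, ordered by the EtOH value, with the Cufflinks interval as a pale bar, drawn from 0.02 where its lower end is 0, and with sums without interval for *NR1D2* and *ARNTL*. *PER2* and *CRY2* move furthest to the right, *DBP* far to the left, and the points of *PER1*, *PER3*, *CLOCK* and the EtOH point of *DBP* lie outside their own bars.

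By FPKM, the order in EtOH was *CRY1*, *NR1D2*, *PER3*, *CRY2*, *CLOCK*, *PER2*, *ARNTL*, *NR1D1*, *PER1* and *DBP*. In R5020 *PER2* and *CRY2* followed *NR1D2*, ahead of *PER3*, and *PER1* stood ahead of *ARNTL* and *NR1D1*. The neighbours *CRY2* and *CLOCK* in EtOH, and *PER2* and *CRY2* in R5020, had overlapping Cufflinks intervals, so their order is not settled. Nor is that of *PER1* and *ARNTL* in R5020, since the interval of *PER1* lay below the *ARNTL* sum. The order of *PER1* and *NR1D1* in R5020 is not settled either, since their intervals overlapped.

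Counted over the retained genes, 2 of 8 clock genes were at least 1.5-fold higher in R5020, against a background of 7.67% of all retained genes, and 0 of 8 were at least 1.5-fold lower, against 4.14%. Without the pseudocount *PER1* also passed, which made 3. The median log2 fold change of the 8 was 0.38, that of all 11018 retained genes was 0.01, and that of all 10 clock genes was 0.21. *PER1* is among the 8 only through its R5020 value. Of the 8 clock gene transcripts with an FPKM of 1 or more in 1 library, 5 had an R5020 interval wholly above that of EtOH, against 26.8% of all such transcripts, 1 had it wholly below, against 21.3%, and 2 overlapped. The 5 were the transcripts of *PER1*, *PER2*, *CRY1* and *CRY2* and the more abundant transcript of *NR1D2*, NM_001145425. That of *PER1* also entered this count only through its R5020 value, and both its FPKM lay above their own intervals. Intervals that stood apart were thus common among all transcripts.

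*ARNTL* and *NR1D2* were the 2 clock genes with more than 1 transcript above 0, and in both the transcripts went different ways. For *NR1D2*, NM_001145425 was at an FPKM of 6.22 in EtOH (interval 5.81 to 6.64) and 9.42 in R5020 (8.94 to 9.96), while NM_005126, which starts further upstream, was at 1.67 (1.44 to 1.89) and 1.06 (0.879 to 1.25). The share of NM_001145425 in the gene's FPKM was 78.9% in EtOH and 89.9% in R5020. For *ARNTL*, whose 3 transcripts share a start, NM_001030273 was at 0.766 (0.614 to 0.915) in EtOH and 0.388 (0.269 to 0.508) in R5020. NM_001178 was at 0.719 and 0.815, and NM_001030272 was listed at 0 in EtOH and at 0.143 in R5020. Of all transcripts above 0 in 1 library, 21.1% had the R5020 interval above that of EtOH and 18.3% below. The near equality of the *ARNTL* sums thus covered a different split among its transcripts. Among all 4105 genes with at least 2 transcripts above 0, 32.3% had 1 transcript with its interval above and another with its interval below, so such opposite differences were common in these files. Cufflinks divides reads shared by transcripts of a gene among them, and the split rests on that estimate.

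**Figure D2:**
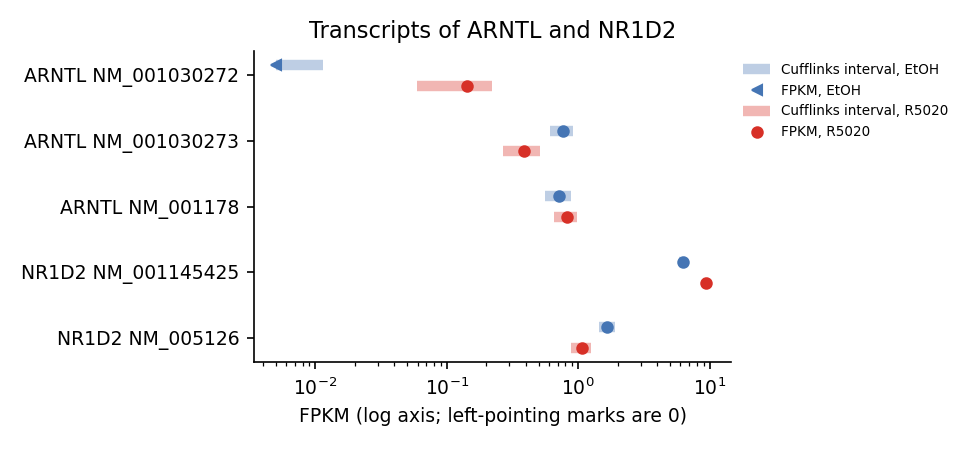
FPKM (log axis) of the transcripts of *ARNTL* and *NR1D2* in EtOH (blue) and R5020 (red), with Cufflinks intervals as pale bars and a left-pointing mark for a value of 0. For *NR1D2* the abundant transcript is higher in R5020 (9.42 against 6.22) and the other one lower (1.06 against 1.67).

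The PR binding sites near these genes were then examined. The authors deposited 11181 sites, each with a MACS score, the −log10 of its p-value against input DNA multiplied by 10, of 50 to 1965 with a median of 74.5. A site was tied to a gene when its nearest edge lay within 50 kb of the gene. By this rule 7 of the 10 clock genes had a site, against a background of 45.7% of all genes and 52.7% of the retained genes. A site overlapped the gene itself in 4 of 10, against 18.1% of all genes and 22.5% of the retained genes. None of these shares was matched for gene length. In all, 16 sites lay within 50 kb of a clock gene, with scores of 59.5 to 292 and a median of 79.9.

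The *PER2* site (chr2:239194257-239194771, hg19) lay in intron 1, with its midpoint 2.69 kb downstream of the start of the gene. Its score of 292 ranked 125 among all sites, so that 1.11% of sites scored higher. *PER1* had a pair of sites close to its start. One was in intron 1 (chr17:8055055-8055401), 0.525 kb downstream of the start, with a score of 107 (rank 1487). The other (chr17:8057617-8058082) was 2.10 kb upstream of the RefSeq start, with a score of 81.5 (rank 4065), in a region that GENCODE counts to *PER1* but not to its main transcript. The midpoints of both sites also lay in another protein-coding gene of GENCODE. Within 50 kb of the intron site lay 8 gene symbols, and of the upstream site 9, *PER1* included. The link of these sites to *PER1* is thus by position only. Only *PER1* had sites on both sides of its start within 3 kb.

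*CRY1* had a site deep in intron 1 (chr12:107420189-107420571), 67.2 kb downstream of its start, with a score of 98.0 (rank 1933). Another site, with a score of 124 (rank 761), lay 35.3 kb beyond its end, in the annotated UTR of *TMEM263*. *CRY2* had 6 sites within 50 kb, the most of the 10 genes. The one inside the gene was in intron 3 (chr11:45881115-45881638), 12.4 kb downstream of the start, with a score of 117 (rank 984). Downstream of *CRY2*, a pair of sites lay in introns of *MAPK8IP1*, with scores of 96.7 and 78.4. Further downstream lay sites with scores of 59.5 and 69.2. The remaining site, with a score of 60.85, lay 20.7 kb upstream of the gene. These sites are also within 50 kb of other genes, up to 6 gene symbols each with *CRY2* included, so their link to *CRY2* is by position only.

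None of the sites of the remaining genes lay inside the gene. *CLOCK* had a single site, 36.0 kb beyond its end, in the coding part of *TMEM165*, with a score of 65.3. *NR1D1* had a site in *THRA* with a score of 61.9 and one in *MSL1* with a score of 70.8, 18.1 kb and 22.2 kb away. *DBP* had a site 8.72 kb away, upstream of its start, with a score of 92.7, and one in an intron of *SULT2B1*, 37.3 kb away, with a score of 64.7. The midpoint of the upstream site lay outside protein-coding genes, but the site overlapped an annotated UTR. Within 50 kb of the upstream site lay 10 gene symbols, and of the *SULT2B1* site 8, *DBP* included. *PER3*, *ARNTL* and *NR1D2* had no site within 50 kb, the nearest being 164 kb, 848 kb and 191 kb away. The absence of a site means that none passed the peak calling of the authors in this 1 library.

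**Figure D3:**
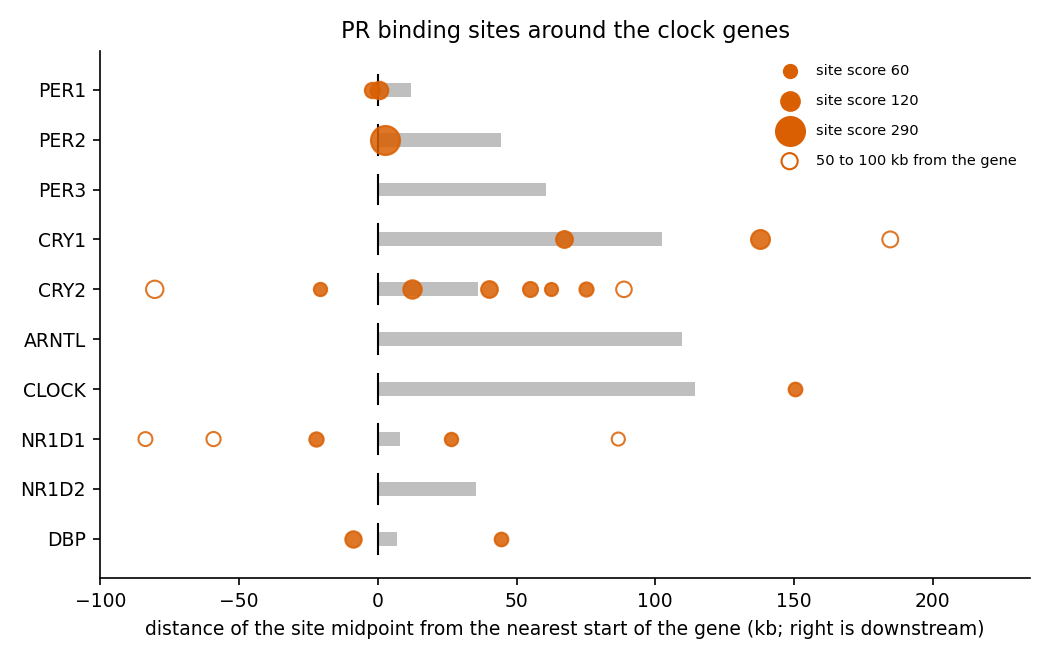
PR binding sites around each clock gene, with the x axis giving the distance of the site midpoint from the nearest start of the gene in kb (right is downstream), grey bars the extent of the gene, circle area proportional to the MACS score, and open circles sites 50 to 100 kb from the gene. The *PER2* site, with a score of 292, lies next to the gene start and is the largest, and *PER3*, *ARNTL* and *NR1D2* have no circle.

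Set beside the RNA-seq values, the 4 genes with a site inside them were at log2 fold changes of 0.47 (*PER1*), 1.29 (*PER2*), 0.38 (*CRY1*) and 0.82 (*CRY2*). The 3 retained genes without a site within 50 kb were at 0.05 (*PER3*), −0.08 (*ARNTL*) and 0.37 (*NR1D2*), and *CLOCK*, with a distant site, at 0.01. *NR1D1* and *DBP*, which had sites within 50 kb but not inside them and were not retained, were at −0.26 and −0.55. Of the genes with a site inside, *PER1* was retained only through its R5020 value. Among all retained genes, 11.8% of the 2482 with a site inside were at least 1.5-fold higher in R5020, 6.84% of the 3321 with a site only nearby and 6.25% of the 5215 with none. The shares at least 1.5-fold lower were 4.75%, 4.82% and 3.41%, in the same order. None of these shares was matched for gene length. The median log2 fold change of the genes with a site inside was −0.00097. The ChIP-seq and RNA-seq cells were treated for different times, after unequal times in charcoal-stripped serum. The sites alone do not show which gene they act on.

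The PR binds as a dimer to an inverted repeat of the hexamer TGTTCT. Of the 16 sites near clock genes, 1 held the full inverted repeat, GNACA and TGTNC set 3 bases apart, which reads the same on both strands. This is 6.25% (Wilson 95% interval 1.11 to 28.3, counting error only), against 2.40% of all sites and 0.823% of windows 5 kb away. The site with the motif was the one upstream of *PER1*, which holds GAACATCATGTTC. The *PER2* site held the shorter core ACANNNTGT, found in 11.6% of all sites and 11.4% of the windows 5 kb away, so this core, part of the full repeat, was about as frequent outside sites. The *PER1* intron site held neither and contained the hexamer TGTTCT or its reverse complement 2 times, a hexamer present in 25.2% of all sites and 27.4% of the windows. The sites within *CRY1* and *CRY2* held none of these letters. Stretches of the *PER1* and *PER2* sites, shown because they carry the PR signal nearest to the starts of *PER1* and *PER2*, are given on the plus strand of GRCh37, with the matched letters in capitals.
PER1 upstream site, chr17:8057725-8057844: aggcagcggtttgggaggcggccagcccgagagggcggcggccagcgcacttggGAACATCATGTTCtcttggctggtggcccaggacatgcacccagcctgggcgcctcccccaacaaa
PER1 intron 1 site, chr17:8055182-8055301: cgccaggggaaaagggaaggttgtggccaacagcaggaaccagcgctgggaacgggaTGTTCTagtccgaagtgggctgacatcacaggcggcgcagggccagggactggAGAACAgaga
PER2 intron 1 site, chr2:239194403-239194522: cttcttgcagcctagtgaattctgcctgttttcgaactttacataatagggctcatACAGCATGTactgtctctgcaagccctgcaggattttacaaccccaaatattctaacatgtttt

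The promoters of the clock genes were searched for E-box and D-box sequences of the loop and for the full inverted repeat. The element bound by the REV-ERB receptors was not searched for. Promoters of the RefSeq table (GRCh38.p14), 250 bases before to 50 bases after a gene start, were found for all 10 genes, 15 promoters in all, with *ARNTL* listed as *BMAL1*. The E-box CACGTG was present for *PER1* and *NR1D2*, and for 8.77% of all genes in the table. The variant E-box CACGTT, on either strand, was present for *PER2*, *CRY1*, *CRY2*, *CLOCK* and *NR1D1*, and for 6.44% of all genes. The D-box TTANGTAA, on either strand, was present for *PER2*, *PER3* and *NR1D2*, and for 2.71% of all genes. Within this window the *ARNTL* and *DBP* promoters held none of these 3, which does not cover other elements of the loop. No clock gene promoter held the full inverted repeat, which 0.48% of all genes did. The E-boxes of *NR1D2* lie before the start of NM_001145425, the transcript that was higher in R5020. A match of letters is a description and not evidence of binding.
Stretches with the E-box of *PER1*, an E-box of *NR1D2* and the D-box of *PER3* are shown as examples of the elements of the loop. The *NR1D2* E-box shown lies 155 bases before the start, and the other, 105 bases before it, is not shown. The stretches are in the direction of the gene, with the motif in capitals and coordinates from a match of the sequence to GRCh37. The starts in the RefSeq table need not be those of the transcripts in the RNA-seq files, and for *PER3* the table's start lies upstream.
PER1, minus strand, chr17:8055863-8055922: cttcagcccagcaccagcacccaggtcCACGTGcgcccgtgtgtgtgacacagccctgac
NR1D2, plus strand, chr3:23987430-23987489: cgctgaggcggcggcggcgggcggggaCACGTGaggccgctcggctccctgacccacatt
PER3, plus strand, chr1:7844148-7844207: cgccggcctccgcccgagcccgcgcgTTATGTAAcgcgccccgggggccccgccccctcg

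Beyond these 10 genes, 22 other genes of the clock and its outputs were examined as a list, and 15 were retained. Of the 15, 1 was at least 1.5-fold higher in R5020 and 1 at least 1.5-fold lower, and the median log2 fold change was 0.03. Of all retained genes, 7.67% were higher and 4.14% lower, so with so few genes these counts do not set the list apart. *NAMPT*, the rate-limiting enzyme of NAD salvage and a known clock output, rose from 9.58 FPKM under EtOH to 23.5 under R5020, with a log2 fold change of 1.21. *USP2*, a deubiquitinase that acts on clock proteins, fell from 1.97 to 0.528 (−0.96), but it was not retained when only its highest transcript was used.

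The other members of that list did not pass the threshold or were not retained. *RORA* and *RORB*, which encode ROR receptors that compete with the REV-ERBs for the same element, and the ARNTL and CLOCK paralogues *ARNTL2* and *NPAS2* were under an FPKM of 1 in both libraries, as were *BHLHE41*, *HLF* and *FBXL21*. The kinase genes *CSNK1D* and *CSNK1E*, whose products mark PER proteins for degradation, were at log2 fold changes of −0.23 and 0.30. The D-box repressor *NFIL3* was at 3.26 and 5.01 (0.50), and the D-box activator *TEF* at 1.66 and 1.13 (−0.32). The clock outputs *CCRN4L* and *WEE1* were at log2 fold changes of 0.46 and 0.37. *NFIL3* and *CCRN4L* passed the threshold without the pseudocount. *CSNK1E* and *CCRN4L* were named after their values were seen. A PR site lay within 50 kb of 16 of the 22 genes, against 45.7% of all genes and 52.7% of the retained genes. It overlapped 9 of them, against 18.1% of all genes and 22.5% of the retained genes. Among the 9 were *USP2*, *NFIL3* and *TEF*, while the nearest site to *NAMPT* was 41.0 kb away. These shares were not matched for gene length.

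**Figure D4:**
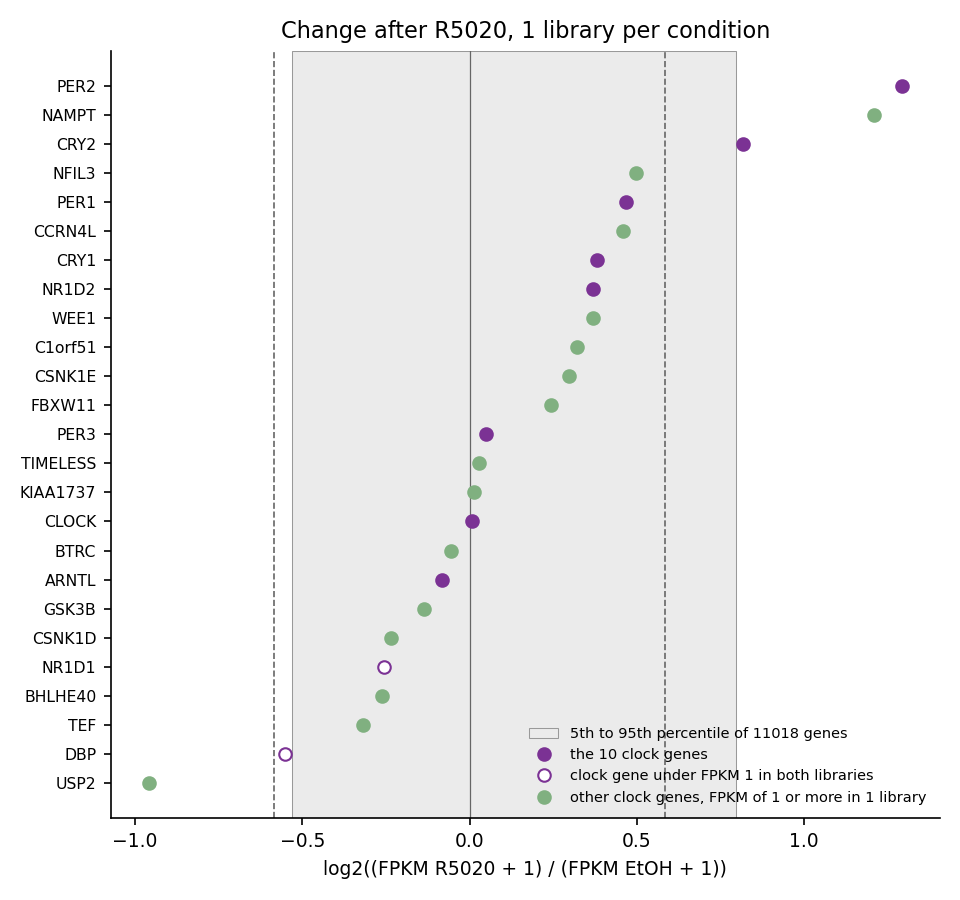
Change on the log2(FPKM + 1) scale, R5020 over EtOH, of the 10 clock genes (purple, open where FPKM was under 1 in both libraries) and the 15 retained other clock genes (green), with dashed lines at 1.5-fold and a grey band from the 5th to the 95th percentile of all retained genes, −0.53 to 0.80. *PER2*, *NAMPT* and *CRY2* lie to the right of the band, and *USP2* and *DBP* to its left.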

How the data were processed

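RNA-seq was measured in 1 R5020 and 1 EtOH library and PR binding in 1 ChIP-seq library. The input library was not analysed here. The authors trimmed reads with Trimmomatic where needed, aligned RNA-seq reads to hg19 with TopHat and deposited Cufflinks FPKM with an interval for 41138 transcripts, which carry RefSeq identifiers. From the deposited coverage signal, depth was estimated. They aligned ChIP-seq reads with Bowtie 1.1.2 and called sites with MACS against input, with deposited scores from 50 upward. FPKM are not counts, so no count test was used.

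FPKM were summed per gene, and the fold threshold of 1.5 and the minimum FPKM of 1 are those of the paper's methods, without its Cuffdiff p-value. The fold was taken on FPKM + 1, unlike the plain ratio of the study, so fewer genes of low FPKM pass. With 1 library per condition, counts are set beside the share of all genes past the same threshold. GRCh37, the assembly of hg19, and GENCODE release 44 gave sequence and annotation. 3 sites on unplaced sequences were left out of motif searches. The named genes were the 10 members with their transcripts and sites, the listed other clock genes that passed 1.5-fold, had a PR site within 50 kb or were not retained, and the 3 genes nearest in level to the member with the largest change. Some listed other clock genes are not reported here and were left out of the list's counts. Members and lists were chosen with earlier results of these data known. Alternatives were a pseudocount of 0.1 or none, the highest transcript, rescaling, other filters, a 2-fold threshold, interval midpoints, other distances, stricter sites and other motifs. The calling of folds and distances was tested on simulated data. Python 3.11.15, pandas 2.3.3, numpy 2.4.6, pysam 0.24.0 and matplotlib 3.10.9 were used.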

Additional observations from a re-analysis of the deposited data

How the results depend on the processing

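With 1 library per condition no replicate could be left out, and no paired analysis was possible because no result comes from a test. Of 88 recomputed values, 75 kept their direction and their side of the 1.5-fold threshold, or for counts stayed within 1.5 times, or for the share of sites with the full repeat stayed within its counting interval, although that share went from 6.25% to 12.5% with the shorter core and 25% with the hexamer. Some of these alternatives could hardly differ from the main value. For the 8 clock genes with 1 transcript, or only 1 above 0, the highest transcript gave the same value by construction. Rescaling was by a factor of only 1.01. With interval midpoints, tried after seeing the data, *DBP* was at −0.24 in place of −0.55. *PER1* was at 0.37 in place of 0.47. Its midpoints, 0.532 in EtOH and 0.984 in R5020, were both under an FPKM of 1, so by midpoints *PER1* would not have been retained. *PER1* passed the threshold with a pseudocount of 0.1 (log2 fold change 0.80) and without one (0.87, tried after seeing the data), and *DBP* did so too (−2.17 and −3.76), though at an FPKM under 1. The *ARNTL* value became 0.0791 when only the highest transcript was taken, and that of *CLOCK* became −0.000687 when FPKM were rescaled by 1.01 to a median log2 ratio of 0. At a 2-fold threshold 1 of the 10 clock genes was higher. The number of other clock genes at least 1.5-fold higher became 3 with a pseudocount of 0.1 or none, and the number lower (*USP2*) became 0 with the highest transcript, with an FPKM of 1 or more in both libraries and at 2-fold. With sites of a score of at least 100, 4 clock genes in place of 7 had one within 50 kb. The low FPKM of *PER1*, *NR1D1* and *DBP* limits what can be said of them.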
